A study of Homo sapiens with 6 samples.

Results

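Messenger RNAs of 42 mitotic and G2/M genes were examined in F36P cells in which HDAC7 had been targeted by CRISPR. The 42 genes were taken from a list of symbols covering mitotic cyclins and kinases, the spindle checkpoint, kinetochores, anaphase, kinesins and cytokinesis. The rule that picks them uses symbols alone, but the list was drawn up with earlier results of these data known. All 42 had a row in the table, among 16315 genes in all, and all 42 passed the filter on low values (a mean of at least 1 CPM, the library-scaled read count, over the 6 libraries), as did 13841 genes in total. F36P is a human leukaemia line with erythroid features that grows in the presence of cytokine. The sgHDAC7 group carried a guide RNA that targets HDAC7 (a histone deacetylase of class IIa) and is labelled an HDAC7 knockout. The sgNT group carried a non-targeting guide. Both groups were kept in 1 µg/ml puromycin for 4 days, so the controls had passed through the same selection. There were 3 libraries a group, which the labels call biological replicates, and nothing in the labels says that clones were picked. The comparison asks which messenger RNAs differ once HDAC7 has been targeted.

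Mitosis is driven by CDK1 bound to cyclin B, with the Polo and Aurora kinases building the spindle. Kinetochores attach chromosomes to microtubules, and the spindle checkpoint keeps the anaphase-promoting complex (APC/C) from its activator CDC20 until every chromosome is attached. Separase, encoded by ESPL1, then cuts cohesin, and kinesins and their partners divide the cell. Most of these genes are transcribed late in the cell cycle, when the MuvB complex, joined by B-Myb and FOXM1, acts at the cell cycle genes homology region of their promoters (core letters TTTGAA or TTCGAA), often near CCAAT boxes bound by NF-Y. In dividing leukaemia cells these messenger RNAs follow the share of cells in G2 and mitosis. In bulk RNA, fewer cells in these phases and less RNA per cell cannot be told apart.

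Promoter sequence is shown for 4 members because CDC20 and ESPL1 were the members that passed the test between the guides, in opposite directions, while KIF4A and CENPA had the next smallest adjusted p in each direction among members with an entry in the promoter table. Each run gives the 150 bases before the RefSeq transcription start (GRCh38.p14) on the gene's strand, 5′ to 3′. Capitals mark TTTGAA or TTCGAA, and CCAAT on either strand (ATTGG where it lies on the other strand).
CDC20 (chr1:43358831-43358980, plus strand): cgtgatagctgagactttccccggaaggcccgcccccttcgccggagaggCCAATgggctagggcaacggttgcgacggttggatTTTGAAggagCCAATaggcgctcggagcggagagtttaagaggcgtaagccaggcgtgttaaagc
ESPL1 (chr12:53268149-53268298, plus strand): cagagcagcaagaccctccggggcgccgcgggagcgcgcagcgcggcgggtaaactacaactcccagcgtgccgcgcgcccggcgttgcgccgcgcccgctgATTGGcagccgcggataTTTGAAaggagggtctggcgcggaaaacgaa
KIF4A (chrX:70289954-70290103, plus strand): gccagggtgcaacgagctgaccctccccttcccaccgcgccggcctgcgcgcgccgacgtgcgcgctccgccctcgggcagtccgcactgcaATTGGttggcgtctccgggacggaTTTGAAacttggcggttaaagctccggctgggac
CENPA (chr2:26785906-26786055, plus strand): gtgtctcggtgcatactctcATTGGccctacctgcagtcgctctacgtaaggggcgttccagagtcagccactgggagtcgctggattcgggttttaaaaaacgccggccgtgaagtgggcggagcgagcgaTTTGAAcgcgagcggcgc

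All 4 windows hold both letter groups, although the genes differed in direction between the guides. TTTGAA begins 65 bases before the start in CDC20, 31 in ESPL1, 34 in KIF4A and 18 in CENPA. CDC20 has CCAAT on both sides of it, beginning 100 and 55 bases before the start. Over windows from 250 bases before to 50 after the start, 35 of the 42 members had an entry, with 46 windows among them. AURKA, BIRC5, BUB3, FOXM1, TPX2, TTK and UBE2C had none. Searched on both strands, TTTGAA stood in 58.7% of the members' windows against 15.2% of all 35116 windows in the table, and TTCGAA in 6.52% against 1.45%. CCAAT stood in 73.9% against 34.6%, and TTTGAA together with CCAAT in 47.8% against 5.90%. By gene, 27 of the 35 members held TTTGAA or TTCGAA and 29 held CCAAT. A match is a run of letters and does not show that a factor binds there.

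The libraries held between 10039693 and 12521195 counts, and the sgHDAC7 libraries were all deeper than the sgNT libraries; the part of depth in the results was not tested. HDAC7 (12:47782722-47833132, minus strand, GRCh38) was measured at 194, 239 and 246 CPM in sgHDAC7 replicates 1, 2 and 3, and at 449.9, 460.4 and 462 CPM in sgNT. The groups did not overlap, and the log2 fold change was -1.02 ± 0.09 (SE), with an edgeR adjusted p of 0.00139 and an exact two-sided permutation p of 0.1, the smallest that 3 against 3 libraries allow. Erythroid markers were abundant, with 12 of 12 tested and their summed level between 17970 and 25237 CPM in sgHDAC7 and between 12570 and 18855 CPM in sgNT. None of the 12 passed in edgeR, DESeq2 or limma (0 each), although 11 had estimates above 0 and 1 below. At an unadjusted edgeR p under 0.05, 3 were higher, where 1270 of all 13841 genes were. With the replicate 1 term described further on, 6 were called higher, where 5.78% of all genes were. The part of these markers in the results on mitotic genes was not tested. Of the markers of other cells, CD3D, CD14, COL1A2 and MS4A1 had no row in the table, CD2 stayed at or below 1.46 CPM and COL1A1 at or below 2.76 CPM. LYZ, a monocyte marker, lay between 77.6 and 105 CPM and CD79A, a B cell marker, between 12.3 and 18.7 CPM, both with overlapping groups.

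Per kilobase of exon (GENCODE 29 length), the members spanned a wide range of levels. CDC20 was highest at 84.5 CPM per kb averaged over the 6 libraries, followed by CCNA2 at 82.2 and the Aurora A activator TPX2 at 81.0, and these 3 were close to one another. In sgNT alone the order differed, with CCNA2 at 83.6, TPX2 at 82.9 and CDC20 at 76.0 CPM per kb, while in sgHDAC7 CDC20 stood at 92.9, CCNA2 at 80.8 and TPX2 at 79.1. BIRC5 stood at 65.6 CPM per kb and the kinesin KIF2C at 53.7. The cytokinesis scaffold ANLN at 4.43, the phosphatase CDC25C at 2.07 and the ubiquitin-conjugating enzyme UBE2C at 1.35 CPM per kb were lowest. UBE2C and CDC25C were the 2 members with a mean under 10 CPM.

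**Figure D1:**
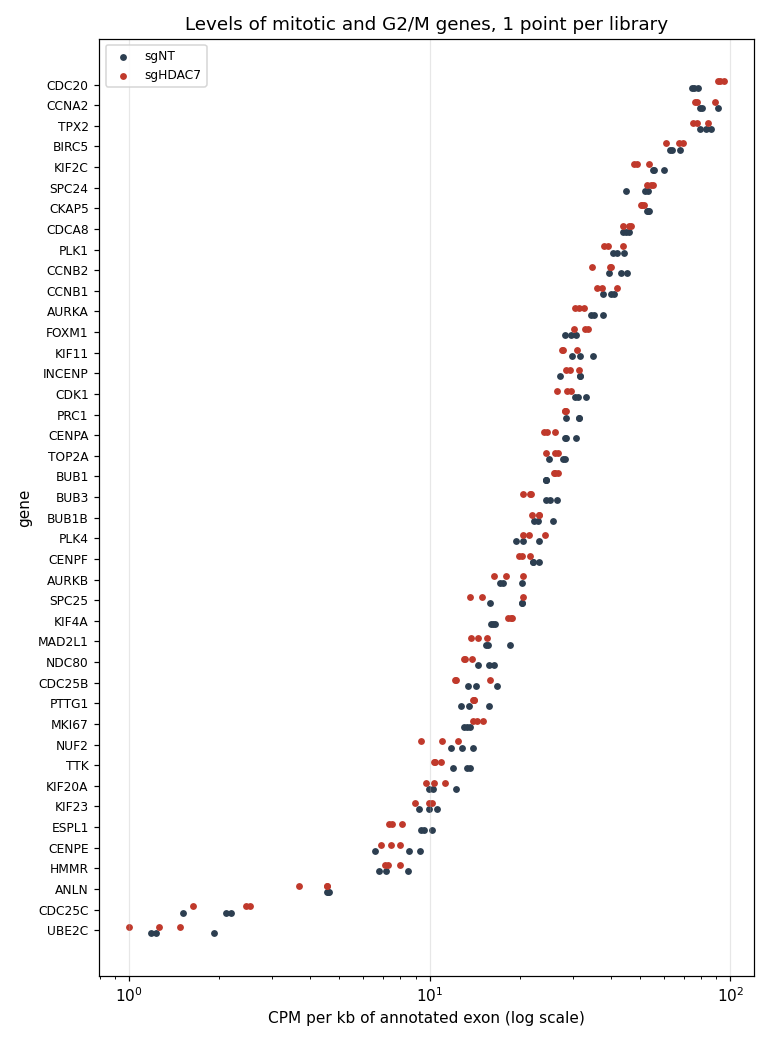
Level of each of the 42 members in CPM per kb of exon on a log axis, with a point for each sgHDAC7 and sgNT library. CDC20, CCNA2 and TPX2 lie at the top. The CDC20 points have means of 76.0 (sgNT) and 92.9 (sgHDAC7) CPM per kb, and UBE2C has the lowest mean in both groups.

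Between the guides, the mitotic genes differed little. CDC20, the APC/C activator, rose in sgHDAC7 and ESPL1, the separase, fell, and the other 40 members did not pass the test. In the edgeR quasi-likelihood test adjusted over all 13841 genes, 1 of 42 members was called higher (2.38%) against 1.16% of all genes tested, and 1 was called lower (2.38%) against 1.70% of all genes. Both shares are near those of all genes. Fold changes of the members ran from -0.35 to 0.29 on the log2 scale, while all genes ran from -3.78 to 4.39. A range widens with the number of genes, so these ranges are not directly comparable. The middle 50% of members lay between -0.18 and 0.002 log2, against -0.16 and 0.14 for all genes tested. The median member stood at -0.07 against -0.002 over all genes tested. The sign was below 0 for 31 of 42 members and above 0 for 11. For 38 of 42 members (90.5%) the 95% interval of the log2 fold change lay within ±0.5, against 54.6% of all genes. The exceptions were CDC25C, UBE2C, SPC25 and ESPL1. The median SE was 0.08 log2 for members and 0.13 for all genes, so these shares reflect precision as well as the size of differences. At an unadjusted edgeR p under 0.05, 2 members were higher and 8 lower, together 23.8% of members against 19.2% of all genes. By direction, 1270 of all 13841 genes were higher and 1383 lower, a more even split than among the members.

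**Figure D2:**
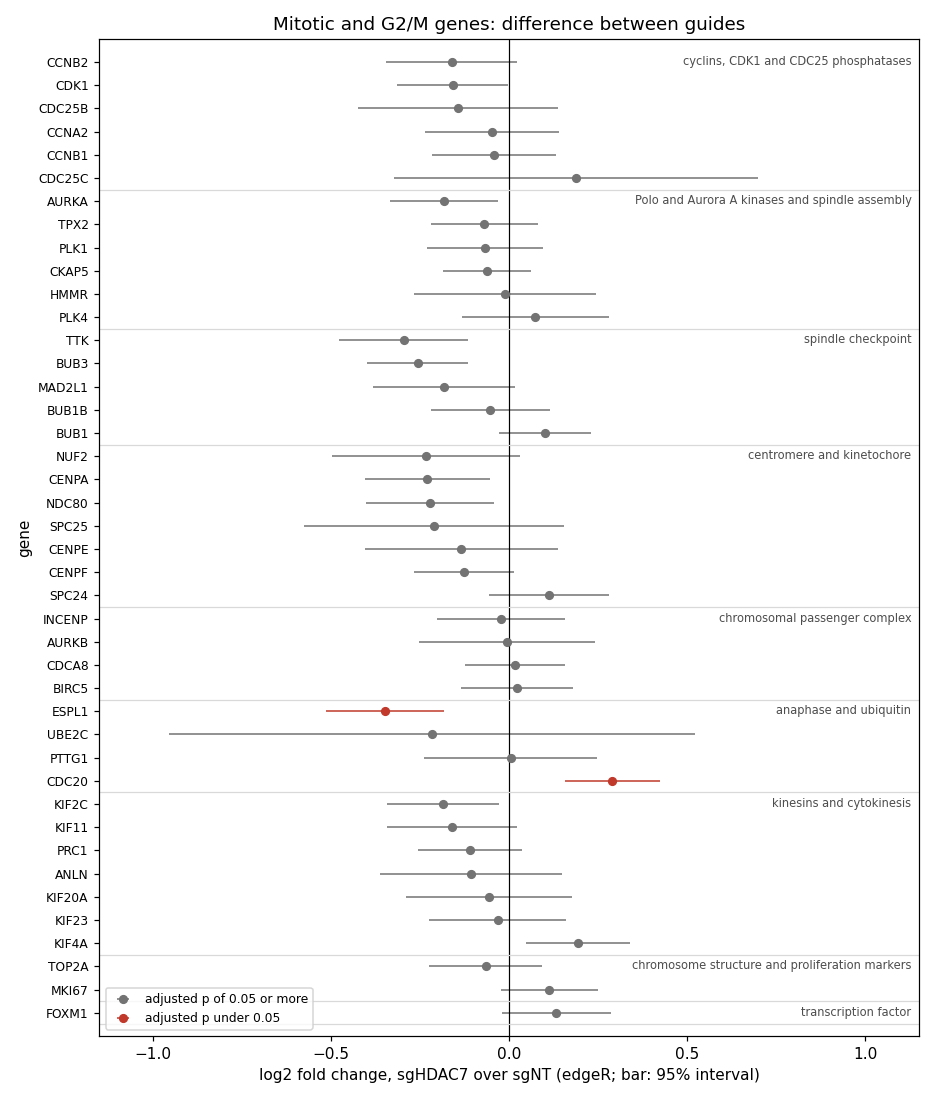
Log2 fold change of each member, sgHDAC7 over sgNT, as a point with its 95% interval, grouped by role. CDC20 at 0.29 and ESPL1 at -0.35 are the 2 members past the adjusted p of 0.05.

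Groups that did not overlap, meaning that every sgHDAC7 library lay on the same side of every sgNT library, were found for 15 members. BUB1, CDC20, KIF4A and MKI67 were higher in all sgHDAC7 libraries, which is 9.52% of members against 13.0% of all genes. CDK1, AURKA, CKAP5, BUB3, TTK, CENPA, CENPF, NDC80, ESPL1, KIF2C and PRC1 were lower in all sgHDAC7 libraries, which is 26.2% of members against 12.2% of all genes. Summed over the 42 members, the messenger RNAs made up 0.511%, 0.491% and 0.489% of TMM-scaled counts in sgHDAC7 replicates 1, 2 and 3, and 0.522%, 0.515% and 0.512% in sgNT. The 3 summed levels of sgHDAC7 thus lay below the 3 of sgNT, by a margin that was small between sgHDAC7 replicate 1 and sgNT replicate 3 (5106 against 5116 CPM).

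**Figure D3:**
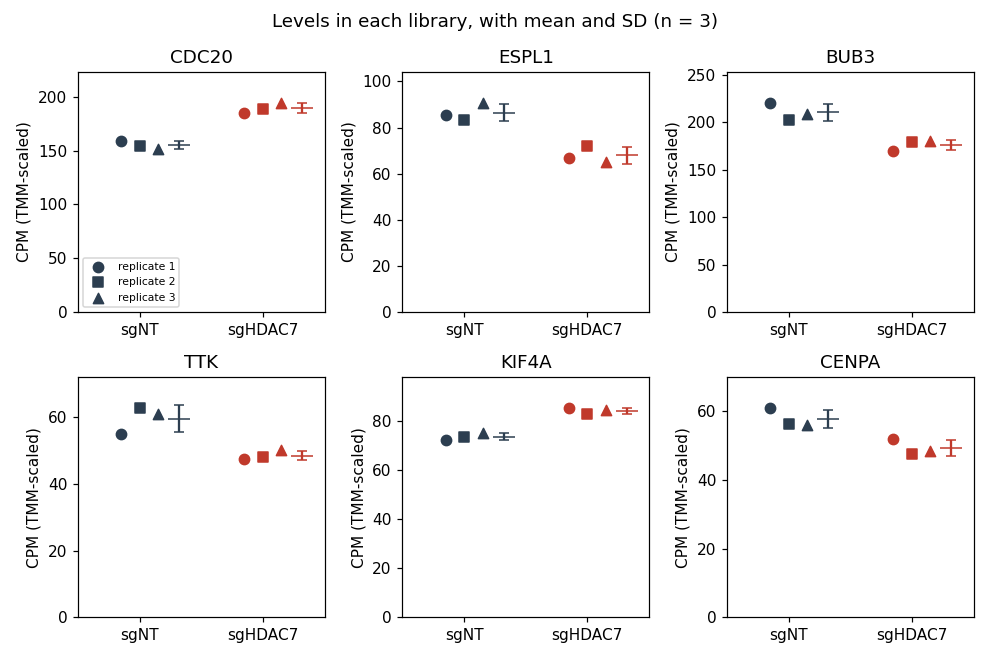
CPM of named members in each of the 3 sgHDAC7 and 3 sgNT libraries, each point being 1 library. CDC20 lies between 185 and 194 CPM in sgHDAC7 and between 152 and 159 in sgNT, and ESPL1 between 65.1 and 72.1 against 83.3 to 90.5.

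The genes acting at anaphase held both called members. CDC20 (1:43358955-43363203, plus strand), which the checkpoint holds back and which then turns on the APC/C, was measured at 185, 189 and 194 CPM in sgHDAC7 replicates 1 to 3 and at 159, 154 and 152 CPM in sgNT. All sgHDAC7 libraries stood above all sgNT libraries. The means were 189 ± 4.42 and 155 ± 3.84 CPM (SD, n = 3 each), a 1.22-fold difference and a log2 fold change of 0.29 ± 0.06 (SE; 95% interval 0.16 to 0.42; edgeR adjusted p = 0.0369). CDC20P1, a processed copy of CDC20 with its own row, was measured at 15.1, 17.1 and 16.1 CPM in sgHDAC7 and at 13.1, 11.7 and 11.9 CPM in sgNT. How the counting divided reads between CDC20 and that copy is uncertain, and the direction was the same in both rows (CDC20P1: log2 0.40 ± 0.13, edgeR adjusted p = 0.124). ESPL1 (12:53268299-53293643, plus strand) was measured at 66.6, 72.1 and 65.1 CPM in sgHDAC7 and at 85.5, 83.3 and 90.5 CPM in sgNT. Its groups did not overlap, with means of 67.9 ± 3.69 and 86.5 ± 3.71 CPM, a 1.27-fold lower level in sgHDAC7 (log2 -0.35 ± 0.07, 95% interval -0.51 to -0.18, edgeR adjusted p = 0.0417).

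Both calls lay close to the threshold and depended on which libraries were fitted. Leaving out 1 library at a time, CDC20 and ESPL1 each passed only when sgNT replicate 1 was the library left out, with edgeR adjusted p between 0.00741 and 0.168 for CDC20 and between 0.0127 and 0.175 for ESPL1. Their sizes moved little in those fits, from 0.27 to 0.31 log2 for CDC20 and from -0.40 to -0.31 for ESPL1. The same 2 genes passed under each scaling tried. PTTG1, or securin, the inhibitor that holds separase until anaphase, stood at 28.3, 28.2 and 28.2 CPM in sgHDAC7 and at 31.7, 25.6 and 27.2 CPM in sgNT, with equal means of 28.2 CPM. UBE2C, a ubiquitin-conjugating enzyme that works with the APC/C, had a mean of 1.60 ± 0.306 CPM in sgHDAC7 and 1.86 ± 0.529 CPM in sgNT. Its 95% interval of -0.95 to 0.52 log2 is too wide at this depth to show a difference, and a processed copy, UBE2CP5, had more counts than UBE2C itself.

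The spindle checkpoint genes had a median log2 fold change of -0.18, and 0 of 5 passed in edgeR, with 2 lower at an unadjusted p under 0.05. DESeq2 called 1 of them, BUB3, and limma 0. BUB3 (10:123154277-123170467, plus strand), which brings checkpoint kinases to the kinetochore, was measured at 169.7, 179 and 180.1 CPM in sgHDAC7 and at 220.3, 203 and 209 CPM in sgNT. The groups did not overlap, and the means of 176 ± 5.74 and 211 ± 9.01 CPM gave a log2 fold change of -0.26 ± 0.06 (95% interval -0.40 to -0.11; edgeR adjusted p = 0.064). TTK (6:80003887-80042527, plus strand), the MPS1 kinase that starts checkpoint signalling, was measured at 47.3, 47.9 and 49.9 CPM against 54.9, 62.5 and 60.8 CPM. All its sgHDAC7 libraries lay below all sgNT libraries, with a log2 fold change of -0.30 ± 0.08 (95% interval -0.48 to -0.12; edgeR adjusted p = 0.0835). BUB1, a kinase that marks centromeric chromatin, stood at 161, 157 and 156 CPM against 147, 148 and 147 CPM. Its groups were apart in the opposite direction from BUB3 and TTK, with a log2 fold change of 0.10 ± 0.06 and an edgeR adjusted p of 0.378. MAD2L1, which binds and holds CDC20, had means of 83.7 ± 5.10 and 95.02 ± 9.98 CPM (log2 -0.18), and BUB1B, its partner in the checkpoint complex, 102 ± 3.07 and 106 ± 8.20 CPM (log2 -0.05). Both of these overlapped between groups.

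The centromere and kinetochore genes had the lowest median of any role, -0.21 log2, with 6 of 7 below 0. None was called by edgeR, DESeq2 or limma (0 each), and CENPA and NDC80 had an unadjusted p under 0.05. CENPA (2:26764289-26801067, plus strand), the histone H3 variant that marks centromeres, was measured at 51.9, 47.5 and 48.6 CPM in sgHDAC7 and at 60.9, 56.4 and 56.2 CPM in sgNT. The groups did not overlap, and the log2 fold change was -0.23 ± 0.08 (95% interval -0.41 to -0.05; edgeR adjusted p = 0.15). SLC35F6, on the same strand, shares 6.96% of the CENPA exon length and was itself lower at 34.8, 30.4 and 34.2 against 44.0, 44.0 and 46.7 CPM (log2 -0.44 ± 0.09, edgeR adjusted p = 0.0362, passing in 1 of the 6 fits that left out a library), and its part in the CENPA values was not tested.

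Of the 4 subunits of the NDC80 complex, which links kinetochores to microtubules, 3 had estimates below 0. NDC80, its namesake subunit, was measured at 49.7, 47.3 and 47.0 CPM in sgHDAC7 and at 52.1, 58.9 and 56.9 CPM in sgNT, without overlap (log2 -0.22 ± 0.08, edgeR adjusted p = 0.171). Its partner NUF2 was measured at 41.9, 31.5 and 36.9 CPM against 39.5, 47.0 and 43.1 CPM, where replicate 1 of the sgHDAC7 group lay among the sgNT values (log2 -0.23 ± 0.12, edgeR adjusted p = 0.32). SPC25 had means of 30.0 ± 6.68 and 34.8 ± 4.68 CPM (log2 -0.21, 95% interval -0.58 to 0.15). SPC24, the subunit that pairs with SPC25, was measured at 157, 150.1 and 155 CPM in sgHDAC7 and at 128, 148 and 151 CPM in sgNT, and its estimate of 0.11 ± 0.08 log2 had the other sign (edgeR adjusted p = 0.451). Of the large kinetochore proteins, CENPF had means of 240.2 ± 10.4 and 262 ± 7.47 CPM without overlap (log2 -0.13), and the kinesin CENPE, which moves chromosomes to the spindle equator, 70.3 ± 5.03 and 77.0 ± 13.2 CPM with overlap (log2 -0.13).

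Of the cyclins and the enzymes that control CDK1, 5 of 6 had a fold change below 0, with a median of -0.10 log2, and none passed in edgeR, DESeq2 or limma (0 each), with CDK1 the 1 gene at an unadjusted p under 0.05. Cyclin A2, CCNA2, was the most abundant per kb, at 249, 217 and 213 CPM in sgHDAC7 and at 256, 221 and 225 CPM in sgNT. In both groups replicate 1 was highest, the groups overlapped, and the log2 fold change was -0.05 ± 0.08 (edgeR adjusted p = 0.808). CDK1, the kinase that drives entry into mitosis, had means of 111 ± 5.85 and 124 ± 5.43 CPM without overlap (log2 -0.16, edgeR adjusted p = 0.25). Its cyclin partners had means of 98.5 ± 7.99 and 101 ± 4.24 CPM for CCNB1 (log2 -0.04) and of 107 ± 8.64 and 119.8 ± 8.26 CPM for CCNB2 (log2 -0.16). CDC25B, a phosphatase that activates CDK1, stood at 57.9 ± 9.30 and 64.0 ± 7.59 CPM (log2 -0.14). CDC25C, of the same family, was scarce at 8.46, 5.44 and 8.17 CPM against 5.04, 7.01 and 7.32 CPM, and its interval of -0.32 to 0.70 log2 spans both directions.

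The Polo and Aurora A kinases and the spindle assembly factors had a median of -0.06 log2. None passed in edgeR, DESeq2 or limma (0 each), with AURKA the 1 gene at an unadjusted p under 0.05. AURKA, the Aurora kinase of centrosomes, was measured at 91.9, 95.4 and 89.5 CPM in sgHDAC7 and at 103, 101 and 110.4 CPM in sgNT. Its groups did not overlap (log2 -0.18 ± 0.07, edgeR adjusted p = 0.183). TPX2, which activates AURKA on the spindle, was measured at 303, 280.3 and 272 CPM against 287, 299.9 and 311 CPM, so that the sign differed between replicate 1 and the other replicates (log2 -0.07 ± 0.07, edgeR adjusted p = 0.624). CKAP5, a microtubule polymerase, was the most precise of the role, with means of 436 ± 4.08 and 455 ± 4.15 CPM, no overlap and a log2 fold change of -0.06. PLK1, the main Polo kinase of mitosis, had means of 192 ± 14.6 and 201 ± 8.65 CPM (log2 -0.07). PLK4, which starts centriole duplication, had 98.8 ± 8.95 and 93.8 ± 8.67 CPM (log2 0.07), and HMMR, a spindle-associated hyaluronan receptor, 29.3 ± 1.82 and 29.5 ± 3.50 CPM (log2 -0.01).

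The chromosomal passenger complex showed the smallest differences. Its 4 genes had log2 fold changes between -0.02 and 0.02 and a median of 0.006, and none of the 4 had groups apart, an unadjusted p under 0.05 or a call in edgeR, DESeq2 or limma (0 each). BIRC5, or survivin, which brings the complex to centromeres, was measured at 266, 233 and 258 CPM in sgHDAC7 and at 259.9, 245 and 240.3 CPM in sgNT (log2 0.02 ± 0.07, 95% interval -0.13 to 0.18). The kinase AURKB had means of 40.9 ± 4.65 and 41.1 ± 3.89 CPM, its scaffold INCENP 133 ± 6.78 and 135 ± 11.7 CPM, and CDCA8, or borealin, 112 ± 3.58 and 111 ± 2.77 CPM. Their 95% intervals all lay within ±0.5 log2.

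Kinesins and cytokinesis genes had a median of -0.11 log2, with 6 of 7 below 0 and groups apart in both directions. None passed in edgeR, DESeq2 or limma (0 each), while KIF4A and KIF2C had an unadjusted p under 0.05. KIF4A (X:70290090-70420832, plus strand), a chromosome-bound kinesin that shapes the central spindle, was measured at 85.1, 82.8 and 84.7 CPM in sgHDAC7 and at 72.3, 73.4 and 75.1 CPM in sgNT. All sgHDAC7 libraries were higher, with means of 84.2 ± 1.23 and 73.6 ± 1.37 CPM and a log2 fold change of 0.19 ± 0.06 (95% interval 0.05 to 0.34; edgeR adjusted p = 0.142). KIF2C, or MCAK, which takes microtubules apart at centromeres, was measured at 196, 178 and 175 CPM against 219.7, 201 and 203 CPM. Its groups did not overlap, with means of 183 ± 11.5 and 208 ± 10.02 CPM and a log2 fold change of -0.18 ± 0.07 (95% interval -0.34 to -0.03; edgeR adjusted p = 0.189). KIF11, the motor that pushes the spindle poles apart, had means of 139.9 ± 9.49 and 156 ± 13.2 CPM (log2 -0.16). PRC1, which bundles the microtubules of the central spindle, had 156 ± 1.05 and 168 ± 9.52 CPM (log2 -0.11), with 58.4% of its exon length shared with other annotated genes. The cytokinesis kinesins KIF20A (41.3 ± 3.03 and 42.9 ± 4.78 CPM) and KIF23 (63.8 ± 4.47 and 65.2 ± 4.63 CPM) differed by -0.06 and -0.03 log2, and ANLN (25.7 ± 3.04 and 27.6 ± 0.198 CPM) by -0.11 log2.

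The proliferation markers TOP2A and MKI67 and the factor FOXM1 gave 0 calls in edgeR, DESeq2 or limma and 0 at an unadjusted p under 0.05. TOP2A, which untangles chromosomes, was measured at 169, 172 and 157 CPM in sgHDAC7 and at 161, 181 and 178 CPM in sgNT, with overlapping groups (log2 -0.07 ± 0.07, edgeR adjusted p = 0.668). MKI67, which encodes the Ki-67 antigen, was measured at 178, 192 and 183 CPM against 167, 174 and 171 CPM. Its groups did not overlap, but its log2 fold change of 0.11 did not pass the test (edgeR adjusted p = 0.349). FOXM1, the transcription factor of late cell cycle genes, was measured at 161, 165 and 149 CPM in sgHDAC7 and at 150.4, 138 and 145 CPM in sgNT. The lowest sgHDAC7 library lay below the highest sgNT library, and the log2 fold change was 0.13 ± 0.07 (95% interval -0.02 to 0.29; edgeR adjusted p = 0.328), with 15.9% of its exon length overlapped by ITFG2 on the opposite strand. FOXM1 and MKI67 had estimates above 0 while most of the other members had estimates below 0.

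**Figure D4:**
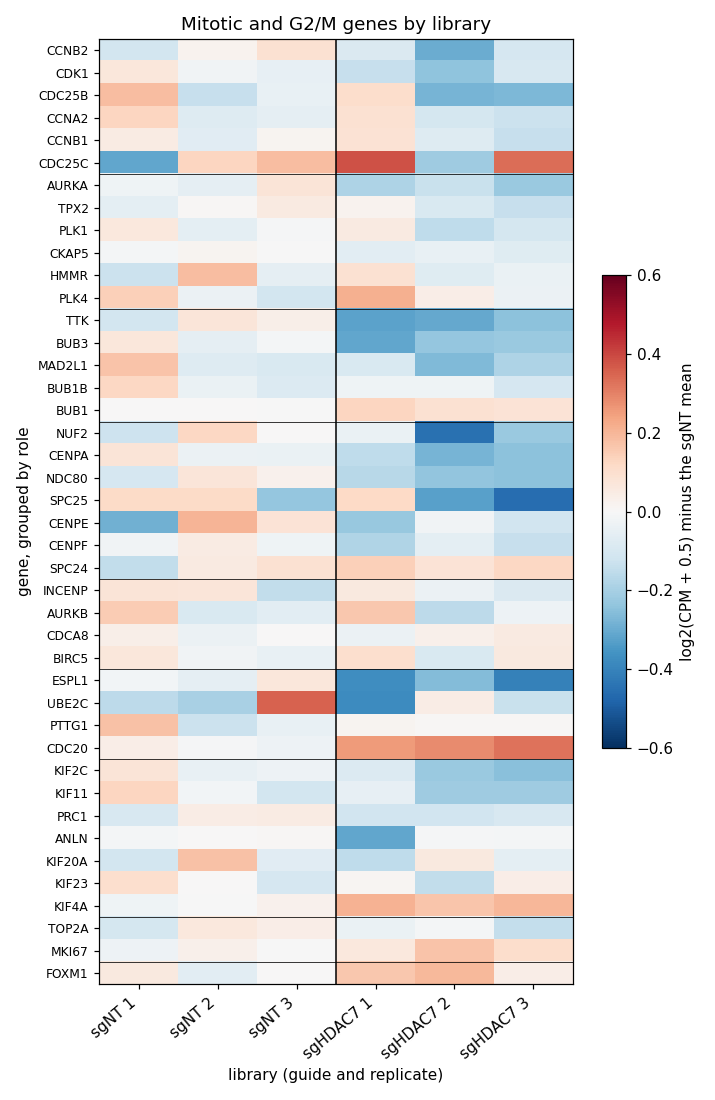
Log2 level of each member in each library relative to the member's mean over the 3 sgNT libraries, ordered by role. CDC20 and KIF4A are higher in all sgHDAC7 libraries, and ESPL1, TTK and BUB3 are lower in all of them.

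Across the table, the 2 libraries numbered 1 differed from those numbered 2 and 3, so the members were also compared with a term for replicate 1 and within replicates 2 and 3 alone. Ratios between same-numbered libraries describe those libraries only, since the numbers did not prove to pair them. The median log2 ratio of the members was -0.03 in replicate 1, -0.10 in replicate 2 and -0.08 in replicate 3, beside medians within 0.01 of 0 over all genes. The ratio was below 0 for 24 of 42 members in replicate 1 and for 31 of 42 over replicates 2 and 3. Within a group, the members' median in replicate 1 lay 0.04 log2 above replicates 2 and 3 in sgHDAC7 and 0.03 above them in sgNT.

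With the replicate 1 term, CDC20 was again the 1 member called higher, where 5.78% of all genes were, and BUB3, TTK, CENPA, ESPL1 and KIF2C were called lower, which is 11.9% of members against 6.81% of all genes. The edgeR adjusted p in that fit was 0.00475 for CDC20, 0.00649 for ESPL1, 0.0126 for BUB3, 0.019 for TTK, 0.0348 for KIF2C and 0.0488 for CENPA. In replicates 2 and 3 alone, CDC20 was the 1 member called higher, where 9.72% of all genes were. CCNB2, AURKA, BUB3, TTK, CENPA, CENPE, NDC80, NUF2, SPC25, ESPL1 and KIF2C were called lower there, 11 members or 26.2% against 10.9% of all genes. Their number includes 5 of the 7 centromere and kinetochore genes. In that fit the edgeR adjusted p was 9.43e-05 for CDC20 (log2 0.32), 0.00133 for ESPL1 (log2 -0.34), 0.00336 for TTK (log2 -0.33), 0.00454 for NUF2 (log2 -0.40) and 0.00973 for NDC80 (log2 -0.30). The fit rests on 2 libraries a group. In replicate 1, NUF2 differed by 0.08 log2 and NDC80 by -0.07, so NUF2 turned in sign and NDC80 kept a smaller difference there, and whether the replicates differ was not tested.

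**Figure D5:**
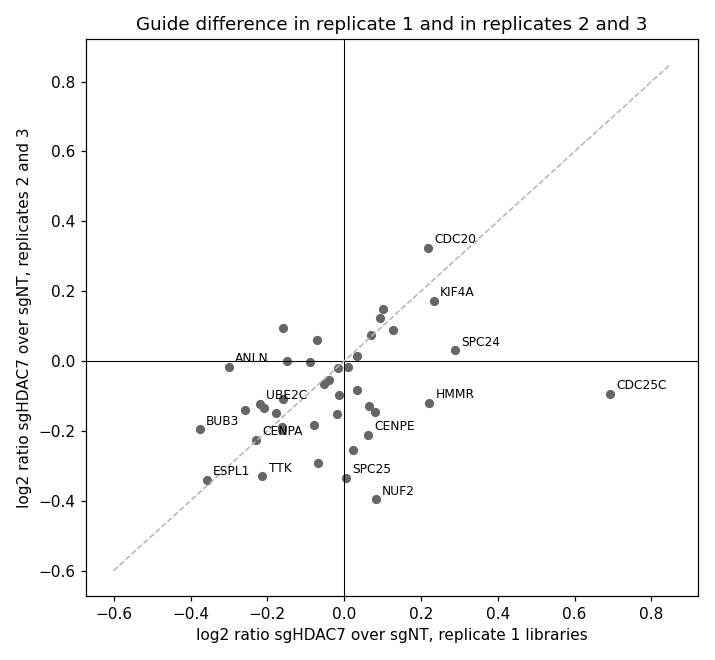
Log2 ratio of sgHDAC7 over sgNT for each member in replicate 1 (horizontal axis) against the mean ratio over replicates 2 and 3 (vertical axis). CDC20 is above 0 and ESPL1, TTK and BUB3 are below 0 on both axes, while NUF2 and CDC25C are among the members that differ in sign between them.

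Other genes of the pathway, from 9 groups listed by function, were read in the same fit. Of 63 other mitotic genes tested, 1 was called higher and 1 lower, where 1.16% and 1.70% of all genes were, with a median of -0.04 log2. Groups were apart upward for 5 of the 63 and downward for 15 (13.0% and 12.2% of all genes). At an unadjusted edgeR p under 0.05, 4 were higher and 11 lower, where 19.2% of all genes passed in either direction. TUBB4B, a beta tubulin with near-identical family members whose reads may be divided uncertainly, rose 1.30-fold (573, 532 and 552 CPM against 452, 411 and 409.6 CPM; edgeR adjusted p = 0.0226). TUBB4B lost its call in 5 of the 6 fits that left out a library, and limma called 1 of the 63. With the replicate 1 term, 4 of the 63 were called higher and 10 lower, where 5.78% and 6.81% of all genes were.

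The E2F, RB and MuvB group held the regulators of the members themselves. MYBL2, which encodes B-Myb, rose 1.34-fold, with 434, 424 and 419 CPM in sgHDAC7 and 345, 298 and 310.0 CPM in sgNT (log2 0.42 ± 0.07, adjusted p = 0.02 by edgeR). Its paralogue MYBL1 fell 2.03-fold from a low level, with 3.70, 4.58 and 4.86 CPM against 8.89, 8.0 and 9.79 CPM (log2 -1.02 ± 0.19, edgeR adjusted p = 0.0279). The groups did not overlap for either gene, and the other 19 of 21 did not pass. Of the 21, 1 was thus called higher and 1 lower, where 1.16% and 1.70% of all genes were. Groups were apart upward for 6 of the 21 and downward for 3 (13.0% and 12.2% of all genes). MYBL2 lost its call in 4 of the 6 fits that left out a library and MYBL1 in 5.

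RAD21, the cohesin subunit that separase cuts, fell from 656, 715 and 685 CPM in sgNT to 572, 542 and 529.7 CPM in sgHDAC7 (log2 -0.32 ± 0.06, edgeR adjusted p = 0.0317). It was the 1 of 18 condensin and cohesin genes called, where 1.70% of all genes were called lower. RAD21 and ESPL1 were therefore both lower. RAD21 lost its call in 4 of the 6 fits that left out a library. None of the 17 APC/C subunits and regulators passed in edgeR, DESeq2 or limma (0 each). CDC16 was the 1 gene at an unadjusted p under 0.05 (log2 -0.22, edgeR adjusted p = 0.215), and their median was 0.03 log2. CDC20, the activator, was thus called while its complex was not, though the difference between them was not tested.

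The list for the constitutive centromere network, the proteins that stay on CENPA chromatin, also held DSN1, NSL1, PMF1 and MIS12 of the MIS12 complex. The 19 genes of this list had a median of 0.14 log2. edgeR and limma called 0 and DESeq2 1, where DESeq2 called 718 genes in all. At an unadjusted edgeR p under 0.05 there were 3 higher and 1 lower, where 19.2% of all genes passed in either direction. CENPH was nearest, at 30.4, 29.2 and 28.1 CPM against 20.2, 20.8 and 23.4 CPM (log2 0.45 ± 0.11, edgeR adjusted p = 0.0574). Groups were apart upward for 6 of these genes and downward for 1, against 13.0% and 12.2% of all genes. G1/S and DNA replication genes had a median of 0.14 log2, with 35 of 40 above 0, groups apart upward for 12 and downward for 0 (13.0% and 12.2% of all genes), and 1 called higher, where 1.16% of all genes were. That gene was GINS4, a subunit of the replicative helicase, at 50.1, 49.0 and 54.6 CPM against 40.5, 33.5 and 34.5 CPM (1.42-fold, log2 0.50 ± 0.10, edgeR adjusted p = 0.0317), and it lost its call in 5 of the 6 fits that left out a library. DESeq2 called 4 of the 40, and 718 genes in all. With the replicate 1 term 9 of the 40 were called higher and 0 lower, where 5.78% of all genes were higher. The replication genes thus lay mostly above 0 and the 42 mitotic genes mostly below 0, and the difference between the lists was not tested.

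Of 7 G1 cyclins and their kinases tested, CCND3 was nearest (log2 -0.28, edgeR adjusted p = 0.129). Among the 3 CDK inhibitors tested it was CDKN2C (log2 -0.17, edgeR adjusted p = 0.185). For mitotic phosphatases and their regulators (12 tested) it was ENSA, a regulator (log2 0.17, edgeR adjusted p = 0.185). These lists held 0 called genes each in edgeR, DESeq2 and limma. At an unadjusted edgeR p under 0.05 the lists held, in that order, 1 lower, 2 lower and 1 higher, where 19.2% of all genes passed in either direction. All 3 CDK inhibitors had estimates below 0. With the replicate 1 term the lists held 1, 1 and 0 genes called lower, where 6.81% of all genes were, and 0 called higher. CCND3 then had an edgeR adjusted p of 0.0051. Their medians were 0.04, -0.17 and -0.01 log2.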

How the data were processed

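Poly-A RNA of 6 F36P libraries (3 sgHDAC7, 3 sgNT) was sequenced. The authors deposited 1 table whose name says CPM but whose values are whole-number counts per gene (100% whole). The submitters' processing notes name build hg38 and edgeR 3.32.1 but not the role of either. Not given in the sources used here: how reads were aligned and counted, on which annotation, and whether by strand. Columns named NC were taken as sgNT, the only group without HDAC7 in its name, and 0 further columns held values.

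edgeR 4.0.16 (R 4.3.3; TMM scaling, group as the only term) tested the 13841 genes averaging at least 1 CPM, two-sided, with Benjamini-Hochberg adjustment over all of them and a threshold of 0.05. CPM are TMM-scaled. SE is the size of the log2 fold change divided by the root of edgeR's F, and 95% intervals use its degrees of freedom. Log2 ratios between single libraries add 0.5 CPM. Totals of 10039693 to 12521195 counts set the precision. Lengths and positions come from GENCODE 29 (GRCh38) and promoters from RefSeq (GRCh38.p14). Scripts were tested on simulated counts.

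The members and lists were chosen with earlier results of these data known. Values in every library are given for called members, the 6 next by adjusted p, the 3 highest and 3 lowest fold changes and the most abundant member per kb of each role, and from each other list for its called genes or the nearest one. Some genes that meet this rule are not reported here. MKI67, PTTG1, CDC20P1 and SLC35F6 were added after their values were seen. DESeq2 1.42.0, limma 3.58.1, other scalings, filters, pseudocounts and covariates, and leaving out each library were alternatives. Libraries are labelled biological replicates, but separate cultures are not described. The p-values thus set the difference between guides against the spread between these libraries only.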

Additional observations from a re-analysis of the deposited data

How the results depend on the processing

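CDC20 remained the 1 member called higher in each alternative that kept both groups whole or used replicates 2 and 3. The count of members lower was 1, and it became 2 with DESeq2, 2 with the replicate number as a block, 5 with the replicate 1 term and 11 with replicates 2 and 3 only. BUB3 was the gene added by DESeq2 (adjusted p = 0.037) and by the block (edgeR adjusted p = 0.043). All genes called numbered 396, against 718 with DESeq2, 998 with the replicate block, 1743 with the replicate 1 term and 2847 with replicates 2 and 3 only. The numbers did not prove to pair the libraries. Deviations from the group means of same-numbered libraries correlated at 0.30, 0.11 and 0.10, the last below the 0.1 required before rounding. Replicates 2 and 3 of sgHDAC7 each correlated better with the other number in sgNT (0.16 each). Between a replicate 1 and the other group's replicates 2 and 3 the values lay from -0.22 to -0.18. The libraries numbered 1 thus shared part of their deviations across groups, while 2 and 3 were not told apart. Deviations within a group sum to 0 for each gene, so the values below 0 largely follow from the 0.30 and are not separate evidence. Whether the libraries numbered 1 were handled together was not tested. Leaving out 1 library gave 0 to 1 members higher, 0 to 4 lower, 27 to 1588 genes in all, a member median of -0.10 to -0.06 log2 and an HDAC7 log2 fold change of -1.08 to -0.92. The 4 lower (BUB3, TTK, NDC80 and ESPL1) came without sgNT replicate 1, and each other omission gave 0 members called. Leaving out 1 library, the sign turned for 13 of 42 members, 0 of them called. Among the members named by the rule, signs turned for CDC25C (-0.068, replicates 2 and 3 only), CCNA2 (-0.13 to 0.021 leaving out 1 library, above 0 without sgNT replicate 1) and BIRC5 (-0.025 to 0.071, below 0 without sgHDAC7 replicate 1 and, at -0.00012, without sgNT replicate 3). The cause was not tested. Scaling by the library total alone moved the median of all genes to -0.02 and of the members to -0.08 log2. Of the named genes, under alternatives other than leaving out a library, 295 values kept their call and direction, 21 gained a call, 2 lost it and 1 turned. Leaving out 1 library, 128 kept both, 5 gained a call, 38 lost it and 3 turned. DESeq2 gave no adjusted p for UBE2C, and a filter at 5 CPM dropped that gene. Counting error limits UBE2C and CDC25C most.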

Other observations

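Some members share sequence with other rows of the table, so their values are uncertain by an amount the counts alone do not show. UBE2C had 16, 22 and 20 counts in sgHDAC7 and 16, 17 and 26 in sgNT, fewer than its processed copy UBE2CP5 with 52, 64 and 55 against 33, 56 and 65 counts. UBE2C is usually among the abundant mitotic messenger RNAs, and here it was the lowest of the 42 per kb. How reads were divided between the 2 rows was not tested. The copies AURKAP1, BUB3P1 and MAD2L1P1 each stayed at or below 5.04 CPM in every library.

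PRC1 has 58.4% of its exon length overlapped by other annotated genes, its antisense gene PRC1-AS1 and AC068831.7 on the same strand. FOXM1 has 15.9% overlapped by ITFG2 on the opposite strand. Without knowing whether counting used strand, reads of such opposite-strand pairs cannot be told apart. Strand would not separate PRC1 from AC068831.7 in any case. The genes in these paragraphs were picked with their values in view.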
